A study of Homo sapiens with 12 samples.

Results

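The lysosome genes described here are 46 genes of the 58288 in the deposited count table, taken by matching the table's Ensembl identifiers to the symbols of a list of lysosomal enzymes, membrane proteins, proton pump subunits and their transcriptional regulators. Each of the 46 symbols matched 1 identifier. They comprise 3 transcriptional regulators (TFEB, TFE3, MITF), 7 membrane proteins and channels, 7 subunits of the V-ATPase or its accessory proteins, 9 proteases, 15 glycosidases and sulfatases, and 5 lipid or thioester hydrolases with the saposin precursor. The rule itself uses no measured values, but the members were chosen with earlier results of these data known.

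RNA of HL-60/S4 cells, an established human myeloid leukaemia line, was sequenced in 12 libraries, 3 in each of 4 groups and each from its own flask. Promyelocytes are the undifferentiated cells, given either water as vehicle or 16 ng/mL of the cytokine TNF-α for 2 h. Granulocytes are the same line after 4 days in 1 µM all-trans retinoic acid (ATRA), given vehicle or TNF-α at the same dose and for the same time. By the authors' methods, granulocytes were suspended for this at a lower cell density than promyelocytes, in fresh medium that again held ATRA. All cultures were at 8 passages, and both treatments took place in medium with added calcium, so the granulocytic form here is a cell line product made with ATRA and every p-value measures the spread between flasks of 1 line. The 2 cell types were treated in separate experiments, so their levels are set side by side without a test and only their responses are compared.

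Lysosomes are acidic compartments in which hydrolases break down proteins, glycans, lipids and nucleic acids delivered by endocytosis, phagocytosis and autophagy. The V-ATPase, a proton pump with a membrane sector and a catalytic sector facing the cytosol, acidifies the lumen, and heavily glycosylated membrane proteins line it. TFEB, TFE3 and MITF are related basic helix-loop-helix factors that bind E-box sequences near many lysosomal genes. In neutrophil precursors, lysosomal hydrolases are also found in azurophil granules.

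Libraries held 22829189 to 31895061 read pairs on genes, with a median of 28233190. The mitochondrial share was 6.16% to 6.28% with vehicle and 5.71% to 5.86% with TNF-α in promyelocytes, without overlap, and 5.72% to 6.35% and 5.67% to 6.97% in granulocytes. The 10 most counted genes took 7.24% to 7.32% and 7.05% to 7.18% of read pairs in promyelocytes and 8.85% to 9.18% and 9.47% to 10.3% in granulocytes, apart in both. No 2 replicates of a group were alike within sampling noise. The summed level of 7 TNF response genes was 218 to 221 read pairs scaled to library size (CPM) in promyelocytes with vehicle and 1786 to 1830.0 CPM with TNF-α, and 1896 to 2124 CPM and 6392 to 6925 CPM in granulocytes. CCL2 alone had a mean of 1812 CPM in granulocytes with vehicle, against 137 CPM in promyelocytes with vehicle. ICAM1 and VCAM1 were also higher there, at 141 against 1.61 CPM and 0.178 against 0.0244 CPM. TNF (14.5 against 20.2 CPM), NFKBIA (13.2 against 23.2), TNFAIP3 (27.8 against 35.2) and BIRC3 (0.729 against 1.52) were lower, all without a test. Azurophil granule markers (5 genes, MPO among them) summed to 7355 to 7968 CPM with vehicle and 6125 to 7019 CPM with TNF-α in promyelocytes, a shift without overlap, and overlapped between treatments in granulocytes, at 2134 to 2359 CPM and 2139.7 to 2326 CPM. Granulocytic markers (11 genes) summed to 409 to 429.7 CPM and 481 to 506 CPM in promyelocytes, and to 5707 to 6033 CPM and 6289.8 to 6654 CPM in granulocytes. These markers went both ways (edgeR, adjusted p under 0.05). In promyelocytes CYBB and NCF1 rose, CYBB from a mean of 112 to 218 CPM, and CSF3R and CEBPE fell. In granulocytes ITGAX, NCF1, FPR1 and TGM2 rose, NCF1 from 1223 to 1940.2 CPM. CD38, ITGAM, NCF4, CSF3R and CEBPE fell there, CEBPE from 212 to 91.4 CPM. Of 8 macrophage or monocyte markers, 6 were at or under 3 counts in promyelocytes and 5 in granulocytes, with MARCO and MSR1 at 0 throughout, and the sum of all 8 was 49.6 to 51.4 CPM with vehicle and 30.5 to 33.9 CPM with TNF-α in granulocytes. The part of these shifts in the results below was not tested. Lists of T cell, B cell, erythroid, megakaryocyte and fibroblast markers summed to at most 18.2 CPM in any library.

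Most lysosome genes moved little within 2 h of TNF-α, and a few moved strongly. In promyelocytes 43 of the 46 genes passed the filter on low counts, of which 7 rose and 3 fell at an adjusted p under 0.05 (edgeR's quasi-likelihood test, Benjamini-Hochberg adjustment over all genes tested). That is 23.3% of those tested, where 14.8% of all genes passed, 8.15% higher and 6.65% lower. In granulocytes 44 were tested, of which 13 rose and 12 fell, or 56.8%, where 49.2% of all genes passed, 24.4% higher and 24.8% lower. The median log2 fold change of the tested members was -0.03 in promyelocytes and 0.01 in granulocytes, and that of all genes -0.01 and -0.00. A change of at least 1 on the log2 scale was reached by CTSH in promyelocytes and by CTSH and ARSB in granulocytes. The 46 genes together took 0.290% to 0.298% of read pairs in promyelocytes with vehicle and 0.292% to 0.303% with TNF-α, and 0.751% to 0.766% and 0.760% to 0.766% in granulocytes, with overlap in both. In bulk RNA, fewer cells expressing a gene and less RNA per cell cannot be told apart.

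Of the 10 genes that passed in promyelocytes, 8 also passed in granulocytes in the same direction, as did 8 of the 25 that passed in granulocytes. Over all genes tested in both, 69.2% of promyelocyte calls and 20.9% of granulocyte calls were shared in this way. CTSH, ARSB, TFE3, ATP6AP1, ATP6V1B2 and LAMP2 rose in both, CTSS and ASAH1 fell in both, and none rose in one and fell in the other. The remaining promyelocyte calls were ATP6V1C1, which rose, and CLN3, which fell. The 3 TNF-α libraries lay above all 3 vehicle libraries for 11 of the 46 genes and below them for 6 in promyelocytes, where 31.1% of all tested genes did not overlap (16.0% above and 15.1% below), and for 14 and 13 in granulocytes, where 55.2% did not (27.3% above and 27.9% below). With 3 libraries against 3, an exact permutation test of 1 gene cannot go below p = 0.1.

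**Figure D1:**
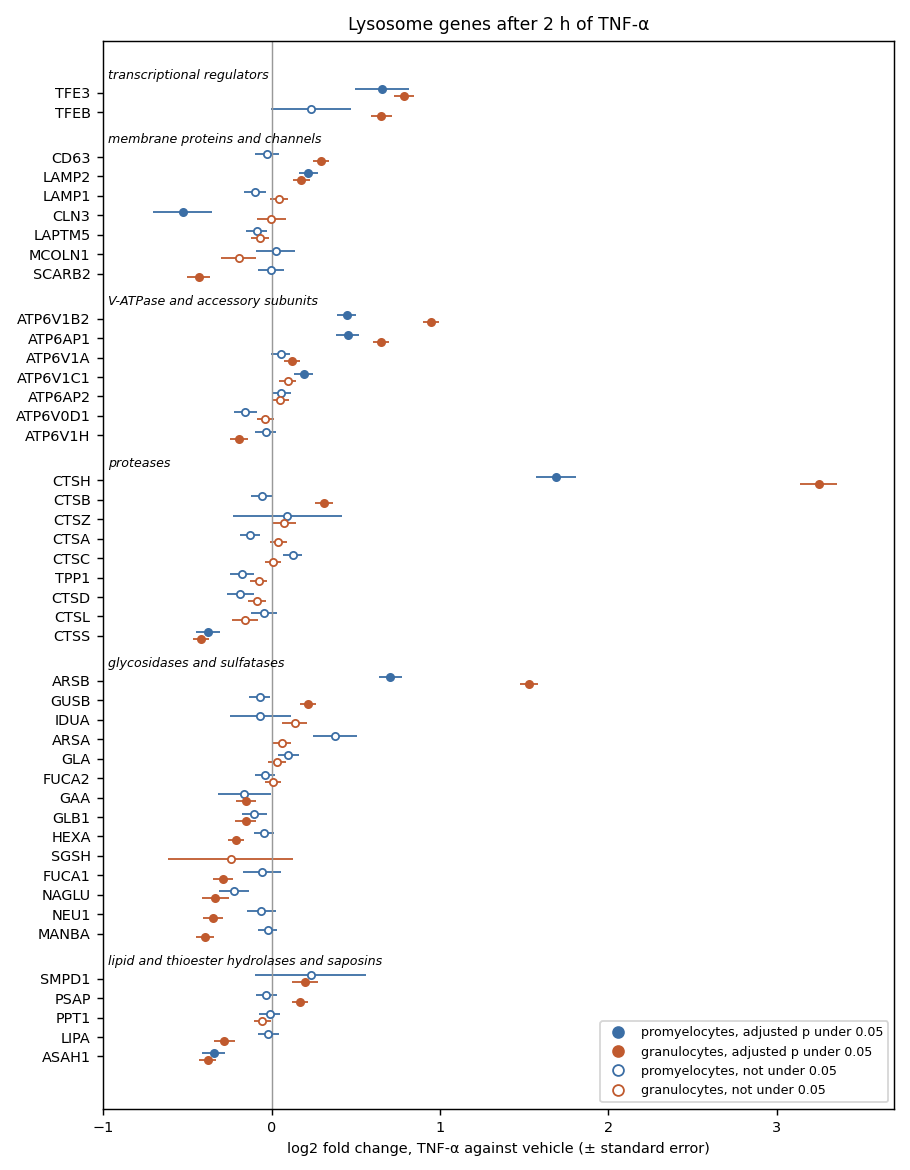
Log2 fold change of TNF-α against vehicle for the 44 lysosome genes tested in at least 1 cell type, grouped by role and ordered by the granulocyte value. Points are edgeR estimates and bars their standard errors, blue for promyelocytes and orange for granulocytes, filled where the adjusted p was under 0.05. CTSH and ARSB stand apart on the right, and most other members lie within 0.5 of 0.

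The promoters of 5 members are shown for 2 kinds of site, the E-box core CACGTG bound by the TFEB family and the NF-kB consensus. Sequences are RefSeq windows on GRCh38.p14, read 5′ to 3′ on the gene's strand and trimmed to the longest stretch upstream of the start that holds no exon of that strand, and capitals mark a match to either motif. CTSH is shown as the member with the largest response, chr15:78945095-78945296 on the minus strand, ARSB as the one with the next largest, chr5:78986088-78986208 on the minus strand, TFEB and TFE3 as the regulators that rose, chr6:41735061-41735310 and chrX:49043487-49043607, both minus, and LAMP1 as the member with the most E-box cores, chr13:113296989-113297238 on the plus strand.
CTSH: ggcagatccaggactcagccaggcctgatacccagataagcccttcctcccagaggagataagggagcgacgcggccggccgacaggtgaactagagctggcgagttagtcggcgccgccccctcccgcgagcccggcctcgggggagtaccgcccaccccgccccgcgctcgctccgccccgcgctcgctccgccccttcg
ARSB: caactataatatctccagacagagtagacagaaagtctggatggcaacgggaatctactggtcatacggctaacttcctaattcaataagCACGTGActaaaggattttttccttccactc
TFEB: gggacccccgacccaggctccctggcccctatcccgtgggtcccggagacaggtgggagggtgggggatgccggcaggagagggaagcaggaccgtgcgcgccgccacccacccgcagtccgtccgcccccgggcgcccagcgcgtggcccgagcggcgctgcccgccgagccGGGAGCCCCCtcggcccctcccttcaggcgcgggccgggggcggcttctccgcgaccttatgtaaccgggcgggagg
TFE3: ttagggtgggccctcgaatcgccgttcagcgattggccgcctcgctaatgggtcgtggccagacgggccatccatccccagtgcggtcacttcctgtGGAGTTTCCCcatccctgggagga
LAMP1: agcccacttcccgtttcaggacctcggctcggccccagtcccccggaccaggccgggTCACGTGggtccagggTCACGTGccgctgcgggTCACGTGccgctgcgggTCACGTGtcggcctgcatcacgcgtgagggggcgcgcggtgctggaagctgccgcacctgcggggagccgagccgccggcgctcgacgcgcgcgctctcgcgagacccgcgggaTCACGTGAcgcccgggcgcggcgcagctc
The CTSH stretch holds no match to either motif and the ARSB stretch 1 E-box core with the flanking base of the extended core TCACGTG. In the TFEB and TFE3 stretches 1 NF-kB consensus each was found, and in the LAMP1 stretch 5 E-box cores. ARSB had 2 windows and TFEB 3, of which the one with the most matches is shown. A match was therefore favoured in advance for these 2 genes, and their other windows held none. The CTSH and TFEB windows lie inside the span of the table's gene models, whose first exons start further upstream.

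Over whole windows, which run from 250 bases before to 50 bases after a start site, 32 of the 46 members had at least 1. On either strand, CACGTG occurred in 10 of these 32 (31.2%), namely ARSB, ATP6V0D1, CD63, CLN3, CTSA, CTSD, GAA, LAMP1, MCOLN1 and NEU1, and in 8.77% of 27305 genes. The extended core TCACGTG, which contains CACGTG, occurred in 28.1% of these members and in 4.49% of genes. The NF-kB consensus occurred in CD63, CTSZ, MITF, SMPD1, TFE3 and TFEB, 18.8% of the members with a window, and in 13.3% of genes. No window was at hand for ASAH1, PSAP, LAMP2, SGSH, ATP6V1H, HEXA, MANBA, ATP6V1A, CTSB, ATP6V1C1, ATP6V1B2, CTSS, NAGLU and ARSA. These matches describe letters in a window and not binding. Of the 10 members with an E-box core, ARSB rose in both cell types, CD63 rose in granulocytes, GAA and NEU1 fell in granulocytes, CLN3 fell in promyelocytes, and LAMP1, CTSA, CTSD, ATP6V0D1 and MCOLN1 passed the test in neither, where 14.8% and 49.2% of all genes passed in promyelocytes and granulocytes.

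Of the regulators, TFE3 rose in both cell types and TFEB rose in granulocytes. TFEB, the best known activator of lysosomal genes, stood at 34.5, 36.4 and 40.6 CPM in granulocytes with vehicle and at 61.2, 57.8 and 56.3 CPM with TNF-α. All 3 treated libraries lay above all 3 controls. The log2 fold change was 0.65 ± 0.0616 (standard error), with an adjusted p of 2.47e-11. In promyelocytes TFEB was near the lower end of detection, at 1.57, 1.39 and 1.18 CPM with vehicle and 1.63, 1.62 and 1.62 CPM with TNF-α. These groups were also apart, but by little, and the log2 fold change of 0.23 ± 0.238 did not pass (adjusted p = 0.578). The promyelocyte counts behind it were 34 to 51 read pairs per library.

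TFE3, a close relative of TFEB encoded on the X chromosome, was at 4.60, 4.51 and 2.95 CPM in promyelocytes with vehicle and at 6.16, 6.06 and 6.77 CPM with TNF-α. Its granulocyte levels were 35.7, 37.2 and 42.5 CPM with vehicle and 69.1, 65.1 and 65.5 CPM with TNF-α. The groups did not overlap in either cell type, and the third vehicle library of promyelocytes was the lowest of all. Promyelocytes gave a log2 fold change of 0.66 ± 0.162 (adjusted p = 0.00807), and granulocytes one of 0.79 ± 0.0609 (adjusted p = 1.15e-13). MITF, the third relative and the melanocyte regulator of the family, did not pass the filter, with 11, 7 and 13 read pairs in promyelocytes with vehicle, 3, 10 and 4 with TNF-α, and none in granulocytes except 5 in 1 TNF-α library. A count of 0 allows up to 3 counts, here 0.0941 to 0.131 CPM.

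**Figure D2:**
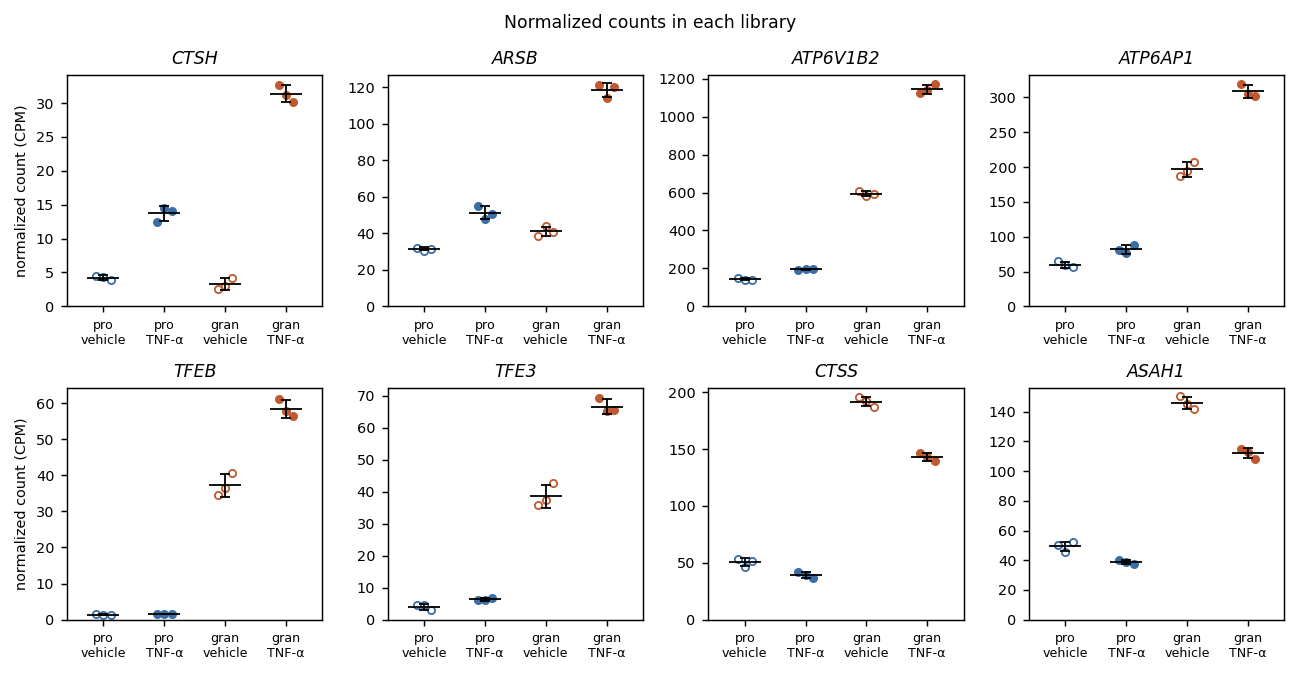
Normalized counts (CPM, scaled within each cell type) of 8 lysosome genes in each of the 12 libraries, with open circles for vehicle, filled circles for TNF-α, a horizontal bar for the mean and a vertical bar for the SD of 3 libraries. The treated libraries of CTSH, ARSB, ATP6V1B2, ATP6AP1 and TFE3 lie above their controls in both cell types, and those of CTSS and ASAH1 below.

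Among the proteases the response was carried by CTSH. Of the 9, CTSH rose and CTSS fell in both cell types, CTSB rose in granulocytes, and the other 6 passed in neither. CTSH (ENSG00000103811.15, chr15:78921058-78949574, minus strand) encodes cathepsin H, a cysteine protease with aminopeptidase activity. Its normalized counts were 4.54, 4.29 and 3.92 CPM in promyelocytes with vehicle and 12.5, 14.5 and 14.1 CPM with TNF-α. In granulocytes they were 2.58, 2.97 and 4.25 CPM with vehicle and 32.7, 31.2 and 30.2 CPM with TNF-α. Every treated library was far above every control, and the treated granulocytes were above the treated promyelocytes although the controls of both cell types had similar levels. CTSH rose by 1.69 ± 0.117 on the log2 scale in promyelocytes, with an adjusted p of 1.32e-09, and by 3.25 ± 0.109 in granulocytes, with one of 1.06e-24. The read pairs behind these values were 67 to 142 per control library and 329 to 872 per treated library.

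CTSS, cathepsin S, a cysteine protease that trims the invariant chain in antigen-presenting cells, went the other way. It was at 53.0, 46.7 and 52.0 CPM in promyelocytes with vehicle and 41.6, 39.0 and 36.5 CPM with TNF-α, and at 196, 192 and 187 CPM and 146, 143 and 139.8 CPM in granulocytes. Treated libraries lay below controls in both cell types. CTSS fell by 0.38 ± 0.0701 on the log2 scale in promyelocytes (adjusted p = 0.000695) and by 0.42 ± 0.0478 in granulocytes (adjusted p = 1.78e-09). CTSB, cathepsin B, rose in granulocytes from 111, 107 and 114 CPM to 143, 141 and 126 CPM, a log2 fold change of 0.31 ± 0.0521 (adjusted p = 4.42e-06), while its promyelocyte libraries overlapped.

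CTSD, the aspartic protease cathepsin D, did not pass in either cell type. It stood at 33.7, 30.6 and 29.7 CPM in promyelocytes with vehicle and 26.5, 25.5 and 30.4 CPM with TNF-α, and at 601, 604 and 676 CPM and 622, 585 and 563 CPM in granulocytes. Treated and control libraries overlapped in both. The log2 fold changes of -0.19 ± 0.0804 (adjusted p = 0.135) and -0.09 ± 0.0533 (adjusted p = 0.172) did not pass, but the promyelocyte value passed when TNF-α replicate 3 was left out (adjusted p = 0.0399). Of the exon bases of CTSD, 41.7% also belong to another gene model on the same strand, and read pairs on these bases were not counted. CTSA, CTSC, CTSL, CTSZ and TPP1, the remaining proteases, had log2 fold changes between -0.18 and 0.12 in promyelocytes and between -0.16 and 0.07 in granulocytes, and of these TPP1 passed as lower in promyelocytes without TNF-α replicate 3 (adjusted p = 0.0233).

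Of the 14 glycosidases and sulfatases tested in granulocytes, 7 fell, where 24.8% of all genes did, ARSB and GUSB rose and 5 did not pass, with a median log2 fold change of -0.15, while in promyelocytes 1 of 13 rose, the others did not pass and the median was -0.06. ARSB (ENSG00000113273.15, chr5:78777209-78986087, minus strand) encodes arylsulfatase B, which removes sulfate from dermatan and chondroitin sulfate. Its levels were 32.2, 30.6 and 31.6 CPM in promyelocytes with vehicle and 55.1, 48.1 and 50.9 CPM with TNF-α. The granulocyte libraries held 38.6, 43.8 and 40.8 CPM with vehicle and 122, 114 and 120.0 CPM with TNF-α. The groups were well apart in both cell types. ARSB rose by a log2 fold change of 0.71 ± 0.0678 in promyelocytes (adjusted p = 1.79e-07) and of 1.53 ± 0.0556 in granulocytes (adjusted p = 1.47e-23). ARSA, the sulfatase acting on sulfatides, had 7.01 ± 0.889 CPM (SD, n = 3) with vehicle and 9.08 ± 1.31 CPM with TNF-α in promyelocytes, with overlap. It did not pass (adjusted p = 0.0626), but did without vehicle replicate 2 or TNF-α replicate 1 (lowest adjusted p = 0.0117), without the filter, in the fit of all 12 libraries, and once trends with GC content and length were taken out.

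The 7 that fell in granulocytes were MANBA (log2 fold change -0.40), NEU1 (-0.35), NAGLU (-0.34), FUCA1 (-0.29), HEXA (-0.21), GLB1 (-0.15) and GAA (-0.15). MANBA, the beta-mannosidase, was at 125, 126 and 123 CPM with vehicle and at 92.3, 90.5 and 102 CPM with TNF-α, without overlap (adjusted p = 4.05e-08). NEU1 encodes the lysosomal sialidase, which acts in a complex with beta-galactosidase (GLB1) and cathepsin A (CTSA), and its mean fell from 53.6 ± 3.94 CPM to 42.2 ± 0.997 CPM (adjusted p = 7.44e-06). Of its partners, GLB1 went from 40.7 ± 1.55 CPM to 36.6 ± 2.995 CPM with overlapping libraries (adjusted p = 0.0421), and CTSA had 196 ± 10.4 CPM and 202 ± 10.96 CPM. NAGLU and HEXA, enzymes of heparan sulfate and ganglioside breakdown, share 12.6% and 4.89% of their exon bases with other gene models of the same strand. The call of GLB1 was lost without vehicle replicate 1 or 3 or without TNF-α replicate 2 or 3 (adjusted p up to 0.242), and that of GAA, the acid alpha-glucosidase, without vehicle replicate 3 or TNF-α replicate 2 or 3 (up to 0.176). Both calls were also lost with DESeq2, with a block for replicate number and in the fit of all 12 libraries. That of GLB1 was lost without the filter as well.

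GUSB, the beta-glucuronidase, rose in granulocytes from 216, 221 and 223 CPM to 261, 259 and 245 CPM, a log2 fold change of 0.22 ± 0.048 (adjusted p = 0.000255). Its promyelocyte libraries overlapped. GUSB has near-identical pseudogene copies, so its counts depend on how reads that match several copies were treated. FUCA2, GLA and IDUA did not pass in either cell type, with log2 fold changes between -0.07 and 0.14.

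In the catalytic sector of the V-ATPase, ATP6V1B2, the B subunit form that is widely expressed, rose in both cell types. It was at 149, 138 and 141 CPM in promyelocytes with vehicle and 189.7, 198 and 196 CPM with TNF-α. In granulocytes it was at 607, 580.3 and 594 CPM with vehicle and 1123, 1142 and 1169.9 CPM with TNF-α, the largest gain in CPM of any member. No treated library overlapped a control. ATP6V1B2 rose by 0.45 ± 0.0564 on the log2 scale in promyelocytes (adjusted p = 7.76e-06) and by 0.95 ± 0.0499 in granulocytes (adjusted p = 1.53e-18).

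ATP6AP1, an accessory subunit that takes part in assembly of the pump, rose as well. Its levels were 64.6, 59.1 and 56.0 CPM with vehicle and 80.6, 76.5 and 88.6 CPM with TNF-α in promyelocytes, and 188, 195 and 208 CPM and 319.6, 305 and 301 CPM in granulocytes. Again the groups were apart in both cell types. Log2 fold changes were 0.45 ± 0.0693 (adjusted p = 8.35e-05) and 0.65 ± 0.0499 (adjusted p = 9.46e-14). The other 5 pump genes had log2 fold changes between -0.20 and 0.19.

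ATP6V1C1, the C subunit, passed in promyelocytes (log2 fold change 0.19, adjusted p = 0.0334), a call lost in 5 of the 6 fits without 1 library, all but that without TNF-α replicate 3 (adjusted p up to 0.144). ATP6V1A, the catalytic A subunit and partner of the B subunit, passed in granulocytes (0.12, adjusted p = 0.037), a call lost without any 1 vehicle replicate or without TNF-α replicate 2 (adjusted p up to 0.181). This call was also lost without the filter and with a block for replicate number. ATP6V1H, the H subunit of the same sector, fell in granulocytes by 0.20 on the log2 scale (adjusted p = 0.00208), from 72.3 ± 0.120 CPM to 63.2 ± 1.74 CPM. ATP6V0D1, of the membrane sector, and ATP6AP2, the prorenin receptor, passed in neither cell type. For ATP6V0D1 the promyelocyte value of -0.16 (adjusted p = 0.137) passed without TNF-α replicate 3 (adjusted p = 0.0229).

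Of the 7 membrane proteins and channels, LAMP2 rose in both cell types, CD63 rose and SCARB2 fell in granulocytes, and CLN3 fell in promyelocytes. LAMP1 and LAMP2 are the abundant glycoproteins of the lysosomal membrane. LAMP1 was at 155, 145 and 142 CPM with vehicle and 138, 127 and 149 CPM with TNF-α in promyelocytes, and at 146, 151 and 165 CPM and 168, 153 and 155 CPM in granulocytes. The groups overlapped, and the log2 fold changes of -0.10 ± 0.0644 (adjusted p = 0.364) and 0.04 ± 0.0519 (adjusted p = 0.522) did not pass.

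LAMP2 levels were 202, 189 and 200.4 CPM with vehicle and 234, 232 and 222 CPM with TNF-α in promyelocytes, and 278, 298 and 283 CPM and 306, 328 and 336 CPM in granulocytes. The groups were apart by little in both. LAMP2 rose by 0.22 ± 0.0562 on the log2 scale in promyelocytes (adjusted p = 0.0115), where the call was lost without vehicle replicate 2 (adjusted p = 0.109), and by 0.18 ± 0.0499 in granulocytes (adjusted p = 0.00355). CD63, a tetraspanin of late endosomes and azurophil granules, rose in granulocytes from 255, 243 and 254 CPM to 319.9, 304 and 298 CPM, a log2 fold change of 0.29 ± 0.0485 (adjusted p = 3.52e-06).

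SCARB2, the receptor that carries beta-glucocerebrosidase to the lysosome, was at 33.4, 33.8 and 34.9 CPM in granulocytes with vehicle and 25.8, 26.0 and 23.6 CPM with TNF-α. In promyelocytes it was at 27.7, 29.3 and 31.1 CPM and 32.1, 28.7 and 27.3 CPM. The groups were apart in granulocytes and overlapped in promyelocytes. SCARB2 fell by 0.43 ± 0.0659 on the log2 scale in granulocytes (adjusted p = 8.03e-07), and its promyelocyte value was -0.00 ± 0.0778 (adjusted p = 0.992).

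CLN3, the protein lost in juvenile Batten disease, passed in promyelocytes. Promyelocytes held 3.61, 4.40 and 3.64 CPM with vehicle and 2.78, 2.35 and 2.92 CPM with TNF-α, and granulocytes 15.4, 16.1 and 15.1 CPM and 13.9, 16.8 and 15.7 CPM. It fell by 0.53 ± 0.174 on the log2 scale in promyelocytes (adjusted p = 0.0467), a call that was lost whichever of the 6 libraries was left out (adjusted p from 0.0561 to 0.205), and had -0.00 ± 0.0853 in granulocytes (adjusted p = 0.993). Another gene model on the same strand holds 25.2% of its exon bases.

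MCOLN1, the calcium channel whose opening activates TFEB, was at 9.62, 10.7 and 9.47 CPM with vehicle and 8.36, 10.6 and 11.2 CPM with TNF-α in promyelocytes. Granulocyte levels were 9.93, 9.44 and 9.34 CPM and 9.17, 8.22 and 7.67 CPM. The granulocyte groups did not overlap, but the log2 fold change of -0.20 ± 0.106 did not pass (adjusted p = 0.126), nor did that of 0.02 ± 0.118 in promyelocytes. LAPTM5, a membrane protein of haematopoietic lysosomes, did not pass in either cell type, with 1279.9 ± 43.0 CPM and 1219 ± 65.2 CPM in granulocytes.

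Among the lipid hydrolases, ASAH1, the acid ceramidase, fell in both cell types. It was at 50.4, 45.9 and 52.0 CPM with vehicle and 40.2, 39.0 and 37.6 CPM with TNF-α in promyelocytes, and at 150.4, 145 and 142 CPM and 115, 113 and 108 CPM in granulocytes. Treated libraries were below controls throughout. It fell by 0.34 ± 0.0666 on the log2 scale in promyelocytes (adjusted p = 0.001) and by 0.38 ± 0.0492 in granulocytes (adjusted p = 3.29e-08).

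SMPD1, the acid sphingomyelinase that produces ceramide, had the opposite sign in granulocytes, with 21.7 ± 1.46 CPM and 24.9 ± 2.76 CPM, overlapping libraries and a log2 fold change of 0.20 ± 0.0781 (adjusted p = 0.0334). That call was lost without vehicle replicate 2 or 3 or without TNF-α replicate 1 (adjusted p up to 0.275). It was also lost with DESeq2, in the fit of all 12 libraries, and once trends with GC content and length were taken out. PSAP, the precursor of the saposins that activate sphingolipid hydrolases, rose in granulocytes from 452, 449 and 468 CPM to 523, 499 and 516 CPM (log2 fold change 0.17 ± 0.0484, adjusted p = 0.00395). LIPA, the acid lipase for cholesteryl esters, fell there by 0.28 on the log2 scale (adjusted p = 0.00023). PPT1, which removes fatty acids from proteins, passed in neither cell type.

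The difference between the responses, granulocyte minus promyelocyte, was tested in a fit of all 12 libraries on 1 scale, so its value is not exactly the difference of the separate estimates. It passed for 10 of 44 members (22.7%), 8 with a higher and 2 with a lower value in granulocytes, where 24.0% of all genes passed, 14.1% higher and 9.88% lower. The median over members was 0.02 and over all genes 0.03. Of all calls, 58.9% were on the higher side, a share that became 46.7% with DESeq2's size factors, under which the members counted 5 on the lower side.

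CTSH had the largest difference, 1.60 ± 0.178 on the log2 scale (adjusted p = 1.15e-07), and ARSB the next, 0.86 ± 0.0881 (adjusted p = 2.78e-08). ATP6V1B2 followed with 0.54 ± 0.0726 (adjusted p = 2.65e-06). These 3 rose in both cell types and rose more in granulocytes. CTSB (0.41, adjusted p = 0.000919), CD63 (0.36, adjusted p = 0.00403), GUSB (0.33, adjusted p = 0.00205) and PSAP (0.24, adjusted p = 0.0348) rose in granulocytes and had values from -0.07 to -0.03 in promyelocytes. On the lower side were SCARB2 (-0.39, adjusted p = 0.00439) and MANBA (-0.33, adjusted p = 0.00199), which fell in granulocytes and had -0.00 and -0.02 in promyelocytes. CLN3 (0.56, adjusted p = 0.0156) is on the higher side with -0.53 in promyelocytes and -0.00 in granulocytes.

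The differences of CLN3 and PSAP depended on single libraries. That of CLN3 did not pass without replicate 2 of promyelocyte vehicle, promyelocyte TNF-α or granulocyte TNF-α (adjusted p up to 0.0635), and that of PSAP without replicate 1 of any group but promyelocyte TNF-α, without replicate 2 of promyelocyte TNF-α or granulocyte vehicle, or without replicate 3 of granulocyte TNF-α (up to 0.121). With every library kept, that of PSAP passed under none of the 5 alternatives. That of CLN3 did not pass without the filter or once trends with GC content and length were taken out. For TFEB the difference of 0.46 ± 0.188 did not pass (adjusted p = 0.0789) but did without vehicle replicate 3 of either cell type (lowest adjusted p = 0.041). For ATP6AP1 it was 0.24 ± 0.090 (adjusted p = 0.0573) and passed without vehicle replicate 3 of either cell type or promyelocyte TNF-α replicate 3 (lowest adjusted p = 0.0148). TFE3, LAMP2, CTSS and ASAH1 passed in both cell types and had differences of 0.17, -0.00, -0.01 and 0.00, with standard errors of 0.157, 0.0739, 0.0841 and 0.0798. Once trends with GC content and length were taken out, the difference of LAMP2 was 0.16 and passed (adjusted p = 0.0449).

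**Figure D3:**
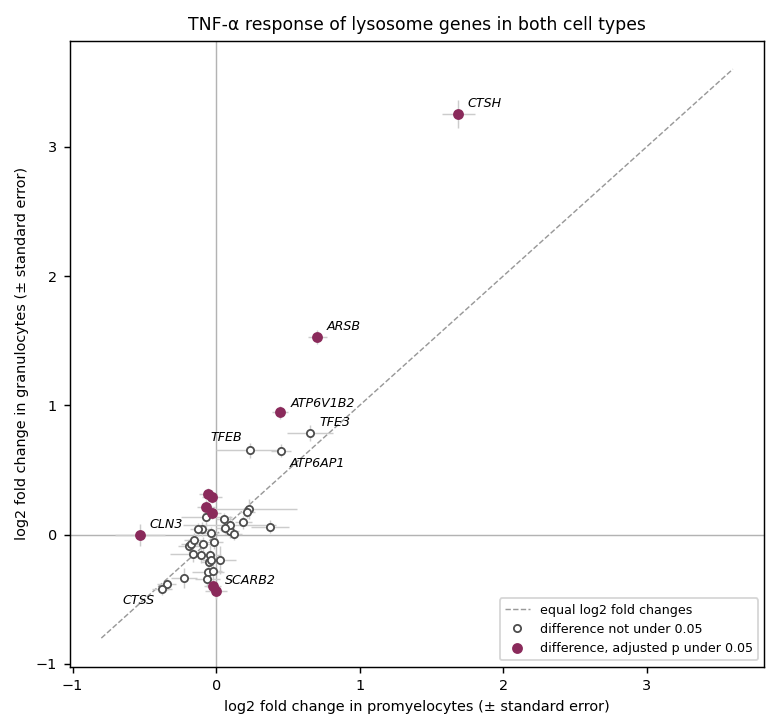
Log2 fold change with TNF-α in promyelocytes (horizontal axis) and granulocytes (vertical axis) for the 43 lysosome genes tested in both, with standard errors and a dashed line where both would be equal. Filled points had an adjusted p under 0.05 for the difference. CTSH, ARSB and ATP6V1B2 lie above the line, and SCARB2 and MANBA below it.

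Without TNF-α the members covered a wide range of levels per length of exon (RPKM). In granulocytes LAPTM5 was highest at 391 ± 13.1 RPKM (SD, n = 3), then CTSD at 201 ± 13.6, PSAP at 141 ± 3.17 and CD63 at 95.2 ± 2.39 RPKM, each separated from the next by more than the spread. The length used for CTSD includes the 41.7% of its exon bases on which read pairs were not counted. Its RPKM may therefore be too low in both cell types, and its distance from LAPTM5 too large. FUCA2 and ATP6V1B2 came after these at 78.0 and 76.0 RPKM, which did not differ beyond their spread. In promyelocytes LAPTM5 was also highest at 101 ± 3.56 RPKM, followed by PSAP at 62.0 ± 4.46 and FUCA2 at 38.6 RPKM, while CTSD was at 10.0 ± 0.666 RPKM. TFEB was at 0.244 ± 0.0343 RPKM in promyelocytes and 6.58 ± 0.559 RPKM in granulocytes, and TFE3 at 0.938 ± 0.217 and 8.99 ± 0.834 RPKM. CTSH was among the lowest in both, at 0.721 ± 0.0527 and 0.554 ± 0.148 RPKM, and reached 2.33 ± 0.178 and 5.32 ± 0.214 RPKM with TNF-α. Since the cell types came from separate experiments, cell type and experiment cannot be told apart in these levels.

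**Figure D4:**
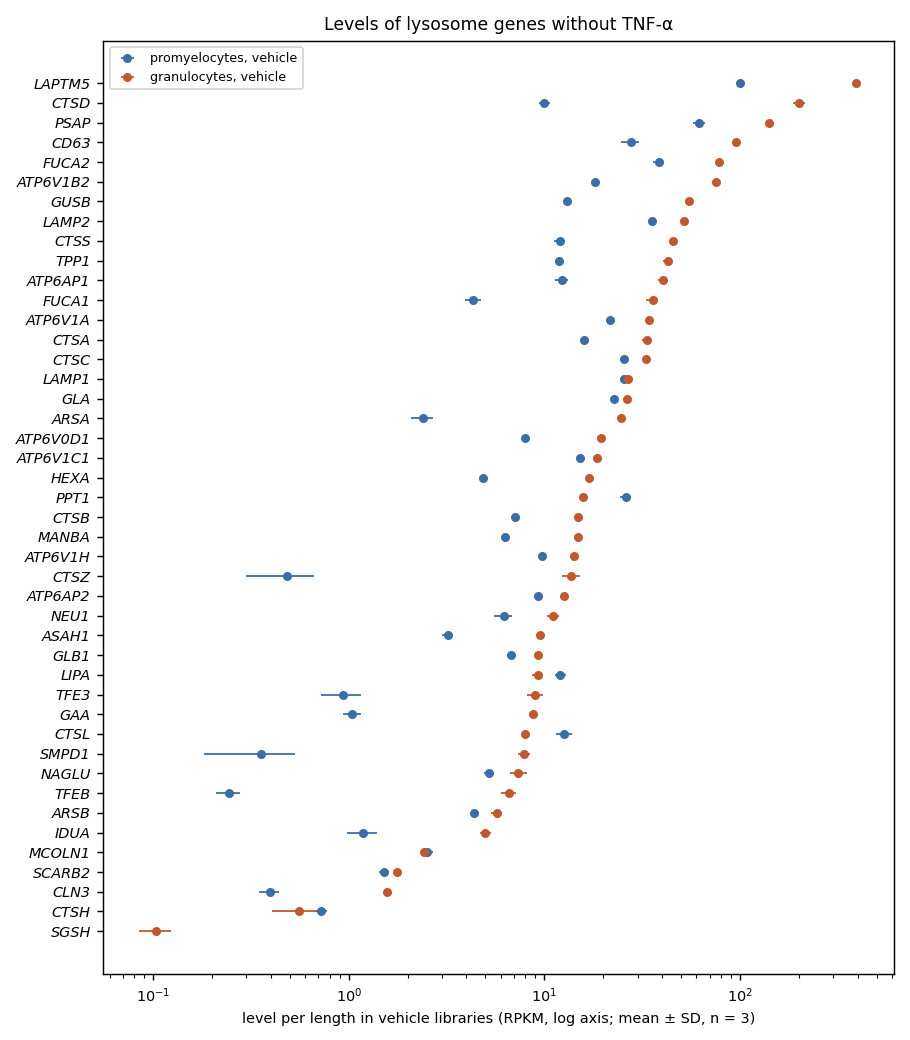
Levels per exon length (RPKM, log axis) of the lysosome genes with reads in vehicle-treated granulocytes, in libraries without TNF-α, shown as mean and SD of 3 libraries in promyelocytes (blue) and granulocytes (orange) and ordered by the granulocyte mean. LAPTM5, CTSD and PSAP are highest in granulocytes, and CTSH and SGSH lowest.

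Besides MITF, IDS and SGSH, sulfatases of heparan sulfate breakdown, had no reads in some groups. IDS had 0 read pairs in all 12 libraries, which allows up to 3 counts per library, a limit for counting error that does not say whether its reads were counted elsewhere. Other gene models of the same strand hold 17.4% of its exon bases, and the part of this overlap in its zeros was not tested. SGSH had 0 in all 6 promyelocyte libraries and 16, 19 and 25 read pairs in granulocytes with vehicle and 14, 19 and 10 with TNF-α, with no call (adjusted p = 0.617).

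The wider lysosomal pathway was followed in 171 further genes in 6 lists, of which 148 were tested in promyelocytes, with 11 higher and 13 lower (16.2%, against 14.8% of all genes), and 153 in granulocytes, with 31 higher and 50 lower (52.9%, against 49.2%). Of the further acid hydrolases, 5 of 29 fell in promyelocytes and none rose (17.2% called), and in granulocytes 12 of 32 fell and 5 rose (53.1%). LGMN, the asparaginyl endopeptidase legumain, went from 0.490 ± 0.0783 CPM to 0.0953 ± 0.0277 CPM in promyelocytes (adjusted p = 0.00442) and from 1.25 ± 0.0279 CPM to 0.233 ± 0.0148 CPM in granulocytes (adjusted p = 2.73e-06). Its level in treated promyelocytes was near that of 3 counts (0.0941 to 0.115 CPM in these libraries), so its fall rests on few reads. ARSG, a sulfatase, fell by 0.68 and 0.94 on the log2 scale (adjusted p = 0.00125 and 1.56e-09). PLA2G15, a lysosomal phospholipase, fell by 0.50 in promyelocytes (adjusted p = 0.00964), and ACP5, the tartrate-resistant phosphatase, by 1.21 in granulocytes (adjusted p = 8.57e-05).

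Of 26 further membrane proteins and transporters tested in promyelocytes, 2 were higher and 5 lower (26.9%, against 14.8% of all genes). In granulocytes 5 of 27 were higher and 10 lower (55.6%, against 49.2%). LAMP3, an inducible relative of LAMP1, was at 0.0112 ± 0.0195 CPM in granulocytes with vehicle, under the level of 3 counts, and at 3.37 ± 0.259 CPM with TNF-α (adjusted p = 1.33e-15). SLC15A3, a transporter of histidine and small peptides, rose in granulocytes by 2.08 on the log2 scale (adjusted p = 2.76e-13), and CTNS, the cystine exporter, fell by 0.78 (adjusted p = 1.96e-08). In promyelocytes the 3 largest called changes were the falls of SLC29A3, SLC17A5 and SIDT2, by 0.42, 0.40 and 0.37 (adjusted p = 0.0107, 0.0154 and 0.0381).

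Other V-ATPase subunits included 1 that fell of 11 in promyelocytes (9.09%, against 14.8% of all genes). In granulocytes 2 of 11 rose and 4 fell (54.5%, against 49.2%). ATP6V0A1, of the membrane sector, fell by 0.22 and 0.34 on the log2 scale (adjusted p = 0.0282 and 7.48e-07), and ATP6V0C and ATP6V0A2 of that sector fell in granulocytes by 0.45 and 0.27 (adjusted p = 4.45e-05 and 0.000115). Genes that deliver hydrolases to the lysosome numbered 1 higher and 1 lower of 24 in promyelocytes (8.33%, against 14.8%). In granulocytes they numbered 5 higher and 9 lower of 25 (56.0%, against 49.2%). M6PR, a mannose-phosphate receptor, rose by 0.20 in promyelocytes (adjusted p = 0.0156), and SORL1, a sorting receptor, fell by 0.18 and 0.41 (adjusted p = 0.0492 and 1.26e-08). The adaptors GGA1 and GGA2 went apart in granulocytes, by 0.55 and -0.39 (adjusted p = 1.57e-11 and 2.91e-08).

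In the list of nutrient sensing at the lysosome and control of TFEB, 3 of 25 rose and 1 fell in promyelocytes (16.0% called, against 14.8% of all genes), and 5 of 25 rose and 2 fell in granulocytes (28.0%, against 49.2%). TFEC, a further relative of TFEB, had larger log2 fold changes than TFEB and TFE3 in both cell types, a comparison that was not tested. It rose from 81.5 ± 0.756 CPM to 154 ± 3.89 CPM in promyelocytes and from 179.9 ± 13.7 CPM to 529 ± 57.6 CPM in granulocytes. Its log2 fold changes were 0.92 and 1.56 (adjusted p = 1.8e-10 and 2.14e-22), and their difference of 0.68 passed as well (adjusted p = 2.98e-06). RRAGC and FLCN, which govern the cytosolic retention of TFEB, rose in granulocytes by 0.45 and 0.38 (adjusted p = 6.3e-06 and 0.000181). FNIP2, a partner of FLCN, rose by 0.33 and DEPTOR, an mTOR inhibitor, fell by 0.30 in promyelocytes (adjusted p = 0.00796 and 0.0284).

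Of 33 autophagy genes, 5 rose and none fell in promyelocytes (15.2% called, against 14.8% of all genes), and 9 rose and 13 fell in granulocytes (66.7%, against 49.2%). SQSTM1, the cargo receptor p62, rose from 68.0 ± 5.65 CPM to 112 ± 9.20 CPM in promyelocytes and from 79.8 ± 3.62 CPM to 435 ± 20.6 CPM in granulocytes, log2 fold changes of 0.72 and 2.45 (adjusted p = 3.14e-07 and 1.08e-30). ATG7, an enzyme of autophagosome conjugation, rose by 0.60 and 0.92 (adjusted p = 3.74e-07 and 1.74e-18). UVRAG rose by 0.46 in promyelocytes (adjusted p = 1.34e-05) and by 0.14 in granulocytes (adjusted p = 0.0405). ATG9A, the membrane protein of autophagosome seeds, fell in granulocytes from 83.3 ± 2.27 CPM to 40.04 ± 1.85 CPM, by 1.06 on the log2 scale (adjusted p = 1.52e-18).

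**Figure D5:**
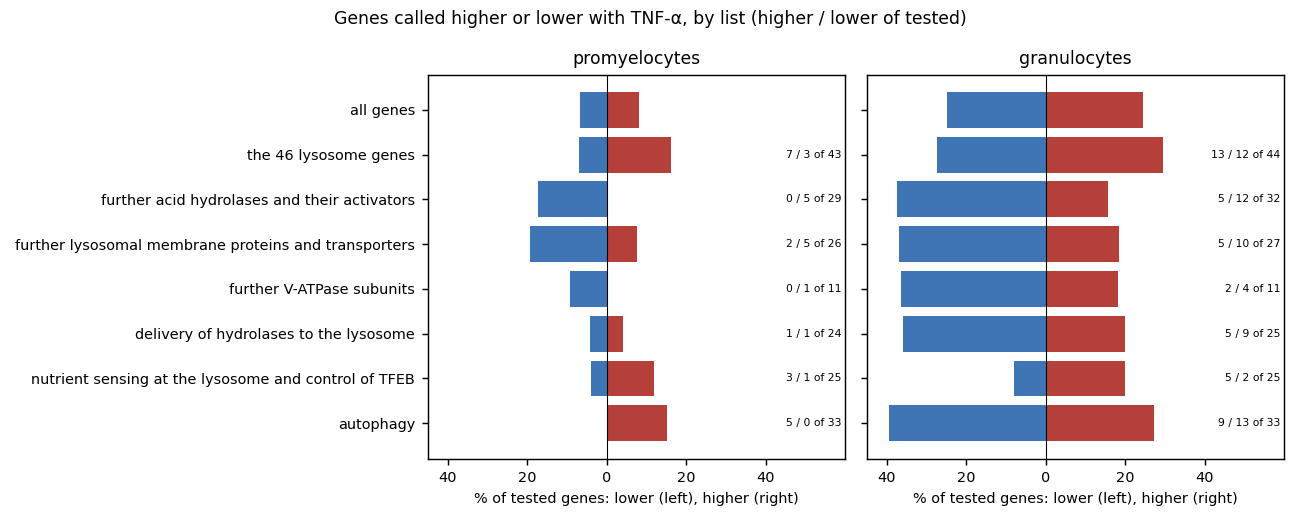
Share of tested genes called lower (blue, left) and higher (red, right) with TNF-α at an adjusted p under 0.05, for all genes, the 46 lysosome genes and 6 further lists, in promyelocytes and granulocytes. Numbers beside the bars give higher and lower calls of the genes tested. The lists of hydrolases, membrane proteins, V-ATPase subunits and delivery have more lower than higher calls in granulocytes, and the list of nutrient sensing more higher calls. Of all genes, 24.4% were called higher and 24.8% lower there.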

How the data were processed

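From total RNA the authors depleted ribosomal RNA before paired-end sequencing, aligned reads to hg38 with STAR 2.5.3a and counted read pairs per gene with featureCounts 1.5.2 on GENCODE 27 (the submitters' notes also name FastQC 0.11.4 and DESeq2 1.16.1). Counting was on primary alignments with both ends mapped, no chimeras and the reverse strand. The deposited values are raw counts. Symbols were matched for 57577 of 58288 identifiers.

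Counts were tested with edgeR 4.0.16 in R 4.3.3: TMM scaling, filterByExpr (minimum count 10, minimum total 15), the quasi-likelihood test and Benjamini-Hochberg adjustment over all genes, called at 0.05. Each cell type was fitted alone, and the difference of responses in a fit of all 12 libraries. Standard errors come from the log2 fold change and F. CPM use each cell type's TMM scale and RPKM the table's exon lengths. Counting limits allow up to 3 counts at a count of 0 (0.0941 to 0.131 CPM), cover counting error only, and with 3 libraries a group the spread between flasks sets the precision.

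Libraries were grouped by title and treatment labels. Values per library are given for TFEB, TFE3, MITF, MCOLN1, LAMP1, LAMP2 and CTSD, for the 8 called members with the largest change in each cell type, for any member called with opposite signs, and log2 fold changes for members whose responses differed. Of each further list, up to 3 called genes a cell type are named. Values of other members are given where a role is described. The members and lists were chosen with earlier results of these data known. Alternatives were DESeq2's size factors, no filter, DESeq2 1.42.0, a replicate block, trends with GC content and length removed, 1 fit for all libraries, and leaving out each library. The fits were tested on simulated data. Promoter sequences are from RefSeq on GRCh38.p14.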

Additional observations from a re-analysis of the deposited data

Results flagged for a closer look

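The responses of 10 lysosome genes to TNF-α differed between granulocytes and promyelocytes by the interaction test of edgeR across all 12 libraries (adjusted p under 0.05). As differences of log2 fold changes, granulocytes minus promyelocytes, they were 1.60 for CTSH, 0.86 for ARSB, 0.56 for CLN3, 0.54 for ATP6V1B2, 0.41 for CTSB, 0.36 for CD63, 0.33 for GUSB, 0.24 for PSAP, -0.33 for MANBA and -0.39 for SCARB2. Of all genes 24.0% passed the same test, and of the lysosome genes 22.7%. All but CLN3 and PSAP passed under every alternative tried, and the cell types were treated in separate experiments, so cell type and experiment cannot be told apart in any of these differences.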

How the results depend on the processing

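No value changed sign with a call on either side. Calls kept under every alternative were 7 of 10 in promyelocytes (not LAMP2, CLN3 and ATP6V1C1), 21 of 25 in granulocytes (not ATP6V1A, GAA, GLB1 and SMPD1) and 8 of 10 differences (not CLN3 and PSAP). With all 12 libraries in 1 fit, 6 members in place of 3 were lower in promyelocytes. Of the differences, 2 members were on the lower side, which became 5 with DESeq2's size factors, 5 without the filter, 6 with DESeq2 and 5 once trends with GC content and length were taken out. The cause of these shifts was not tested.

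On leaving out 1 library, promyelocyte calls ran from 6 to 7 members higher and 2 to 5 lower, the 5 without TNF-α replicate 3, and over all genes from 945 to 1315 higher and from 653 to 1160 lower in place of 1081, the lowest without vehicle replicate 2, with 667 without TNF-α replicate 2. Granulocyte calls ran from 11 to 13 members higher and 10 to 12 lower, and differences from 6 to 11 higher and 2 to 3 lower.

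Same-numbered vehicle and TNF-α libraries did not deviate together (correlations from -0.233 to -0.009). With deviations taken within groups of 3 libraries, these values cannot show that the numbers pair nothing. With the replicate block, members called higher and lower numbered 5 and 2 in promyelocytes, 12 and 10 in granulocytes and 7 and 2 for the difference, and LAMP2 (adjusted p = 0.0624), CLN3 (0.088) and ATP6V1C1 lost their calls in promyelocytes, ATP6V1A, GAA and GLB1 theirs in granulocytes and PSAP its difference (0.0869). With GC content and length trends removed, CTSD (adjusted p = 0.000223) and MCOLN1 (0.0349) passed as lower in granulocytes. ATP6V1C1 and ATP6AP2 were also called there, and SMPD1 lost its call. In promyelocytes LAMP2 (0.102), CLN3 and ATP6V1C1 lost their calls and ARSA passed. Of the differences, those of LAMP2, ATP6V1A, HEXA, NEU1 and ARSA passed, and those of CLN3 and PSAP did not. The median GC content of the tested members was 52.3% in both cell types. That of all tested genes was 47.7% in promyelocytes and 47.8% in granulocytes. For CLN3 in promyelocytes the adjusted p was 0.0535 without the filter and 0.104 with DESeq2. Among the members, counts were low, at most 120 read pairs in any library, for TFEB, CLN3, CTSZ and SMPD1 in promyelocytes. The same held for MITF, SGSH and IDS in both cell types.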
